A study of Mus musculus with 4 samples.

Results

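The response of tau+/+ mouse brain to pentylenetetrazole (PTZ), a convulsant that blocks GABA-A receptors, was read from 2 of the 4 RNA-seq libraries of the study: 1 from vehicle-injected and 1 from PTZ-injected mice. The mice were C57Bl/6, 6 weeks of age, and carried both copies of the tau gene; PTZ was given intraperitoneally at 50 mg/kg, and the study places the collection of brains 1 h later, from PTZ-injected mice chosen for a similar seizure score. The controls are labelled sham, and how many mice were pooled per library, if any, is not given in the sources used here. The other 2 libraries come from tau-/- mice, which lack tau, given vehicle or the same dose of PTZ, and they enter only where a vehicle value needs a second reading. The labels name brain as the source but also describe cultured primary neurons. Ttr, the defining transcript of choroid plexus epithelium, was at 1504 FPKM in tau+/+ vehicle, and genes of meninges, endothelium and microglia were present too, so the RNA was not of neurons alone.

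All 230 genes that the authors listed as lacking a response in tau-/- were described, and each was given its log2 ratio of PTZ over vehicle, without a pseudocount. FPKM counts sequenced fragments per transcript length and library size. Where a pair of FPKM values is given for a gene, vehicle comes first and PTZ second, both in tau+/+. The authors took genes into this list for a change of over 1.5-fold between these same libraries that Cuffdiff also called significant. They further required an absent or milder change in tau-/-. The sizes and directions below therefore describe the list and carry no test, and genes outside it were not analysed here. There was 1 library per condition, so no value has an error between replicates, and the depth of the libraries is unknown from FPKM. As a second reading of the baseline, tau-/- vehicle and tau+/+ vehicle differed by a median of 0.33 and a 90th percentile of 0.79 in absolute log2, and 55 of 230 genes differed by over 1.5-fold. These libraries also differ in genotype and are not replicates.

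Synchronous firing drives calcium into neurons, and kinases such as CaMK, PKA and ERK then act on transcription factors that are already bound in the nucleus, chiefly CREB at cAMP response elements and SRF at CArG boxes. The genes that respond first need no new protein. They encode transcription factors, but also proteins that act at synapses, phosphatases and other inhibitors that end the signal, and proteins that stabilise or destroy mRNA. An intact brain also holds vessels, meninges, choroid plexus and glia, whose transcripts are measured together with those of neurons. In bulk RNA, more cells of a type and more RNA per cell cannot be told apart.

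Of the 230 genes, 175 were higher after PTZ (76.1%) and 55 were lower (23.9%). At least 2-fold higher were 85 genes (37.0%), 31 of them at least 4-fold, and at least 2-fold lower were 6 genes (2.61%). The genes higher after PTZ had a median of 4.24 FPKM in vehicle and 10.8 FPKM in PTZ, a median log2 ratio of 0.97. The genes lower after PTZ had medians of 2.31 and 1.25 FPKM, and a median log2 ratio of -0.82. The lower genes were thus all of low abundance: the highest of them, Rfx3, a transcription factor of ciliated cells, had 8.50 FPKM in vehicle, and 15 of the 55 were under 1 FPKM after PTZ. After PTZ, 59 of the higher genes stood at 20 FPKM or more, against 17 of them in vehicle.

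**Figure D1:**
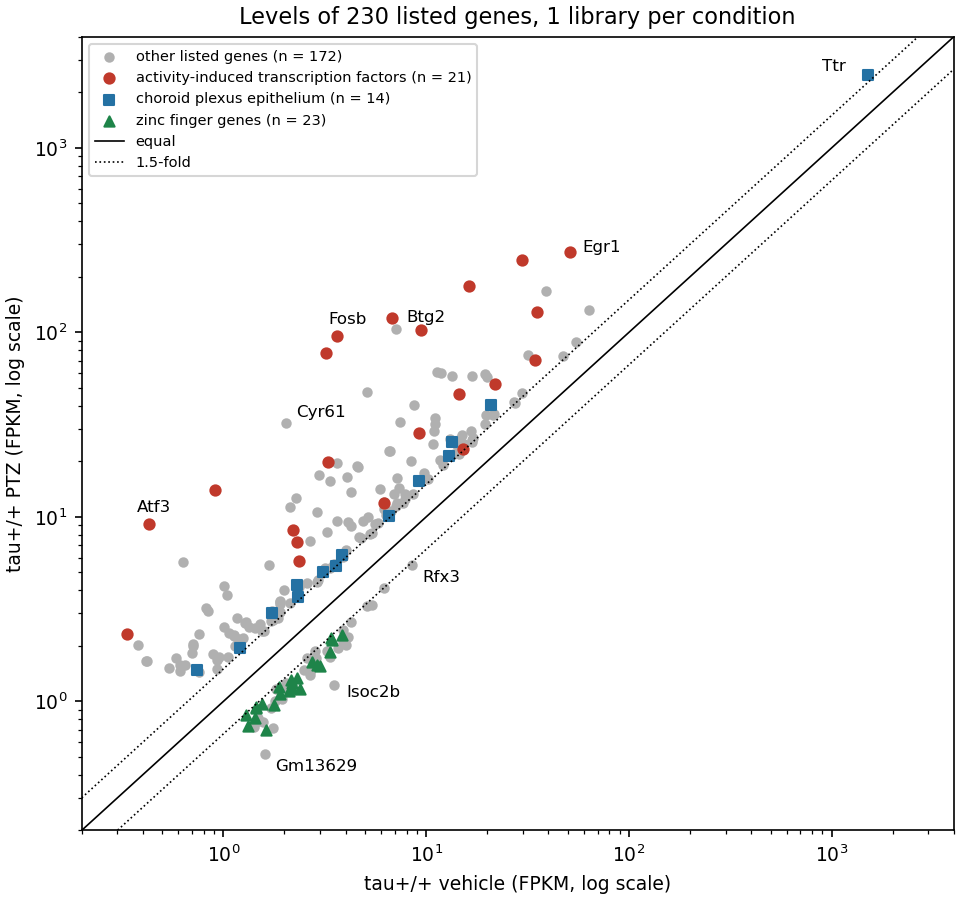
FPKM of the 230 listed genes in tau+/+ vehicle (horizontal) and tau+/+ PTZ (vertical), both on log scales, with 1 point per gene, a solid line of equal values and dotted lines at 1.5-fold. No point lies between the dotted lines, since genes were listed for that change; 175 points lie above and 55 below, and the lower ones reach no further right than 8.50 FPKM.

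The share of higher and lower genes varied with the level in vehicle. All 24 genes under 1 FPKM in vehicle were higher after PTZ, and so were all 17 genes at 20 FPKM or more. Between 1 and 5 FPKM, 70 were higher and 51 lower, and between 5 and 20 FPKM, 64 were higher and 4 lower. The lowest value of the higher library was 1.29 FPKM, for Zfp26, and the lowest mean of both libraries 1.03 FPKM, for Morn5, so that a gene with little RNA in vehicle entered the list only if it was higher after PTZ. The log2 ratios of the genes under 1 FPKM, with a median of 1.51, belong to this side of the list alone.

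Counted in FPKM instead of fold, the gains summed to 3797 FPKM and the losses to -64.0 FPKM. A single gene, Ttr, the carrier of thyroxine and retinol in cerebrospinal fluid, gained 988.3 FPKM of this sum, at 1504 FPKM in vehicle and 2492 FPKM in PTZ. The next gains were those of the transcription factors Egr1 (222.6 FPKM), Junb (217.9 FPKM) and Nr4a1 (162.0 FPKM) and of the synaptic gene Arc (128.8 FPKM). Without Ttr, 44.6% of the gain lay in the 21 activity-induced transcription factors. The losses were small, the 5 largest being those of Rfx3 (-3.02 FPKM), Isoc2b (-2.29 FPKM), Tox (-2.09 FPKM), Cit (-2.08 FPKM) and 1700019N12Rik (-2.02 FPKM). Tox is an HMG-box factor best known from T cells, and Cit is a kinase of dividing and neuronal cells.

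The genes were sorted by role into 17 lists that hold 183 of the 230, and 47 stayed outside. The 21 activity-induced transcription factors were all higher, with a median log2 ratio of 2.42 and a range from 0.63 to 4.72. Their median was 6.80 FPKM in vehicle and 46.3 FPKM in PTZ. Fosb, an AP-1 subunit, had 3.63 and 95.4 FPKM, and Npas4, the neuronal factor that answers to calcium, had 3.21 and 76.9 FPKM. In tau-/- vehicle 17 of the 21 were higher than in tau+/+ vehicle. Against that library the median log2 ratio of the 21 was 1.85 instead of 2.42, with 19 past 1.5-fold. With a pseudocount of 1 FPKM and tau+/+ vehicle it was 1.84. The lists that follow had smaller ratios. Their counts are to be read against all listed genes, of which 76.1% were higher and 37.0% at least 2-fold higher.

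**Figure D2:**
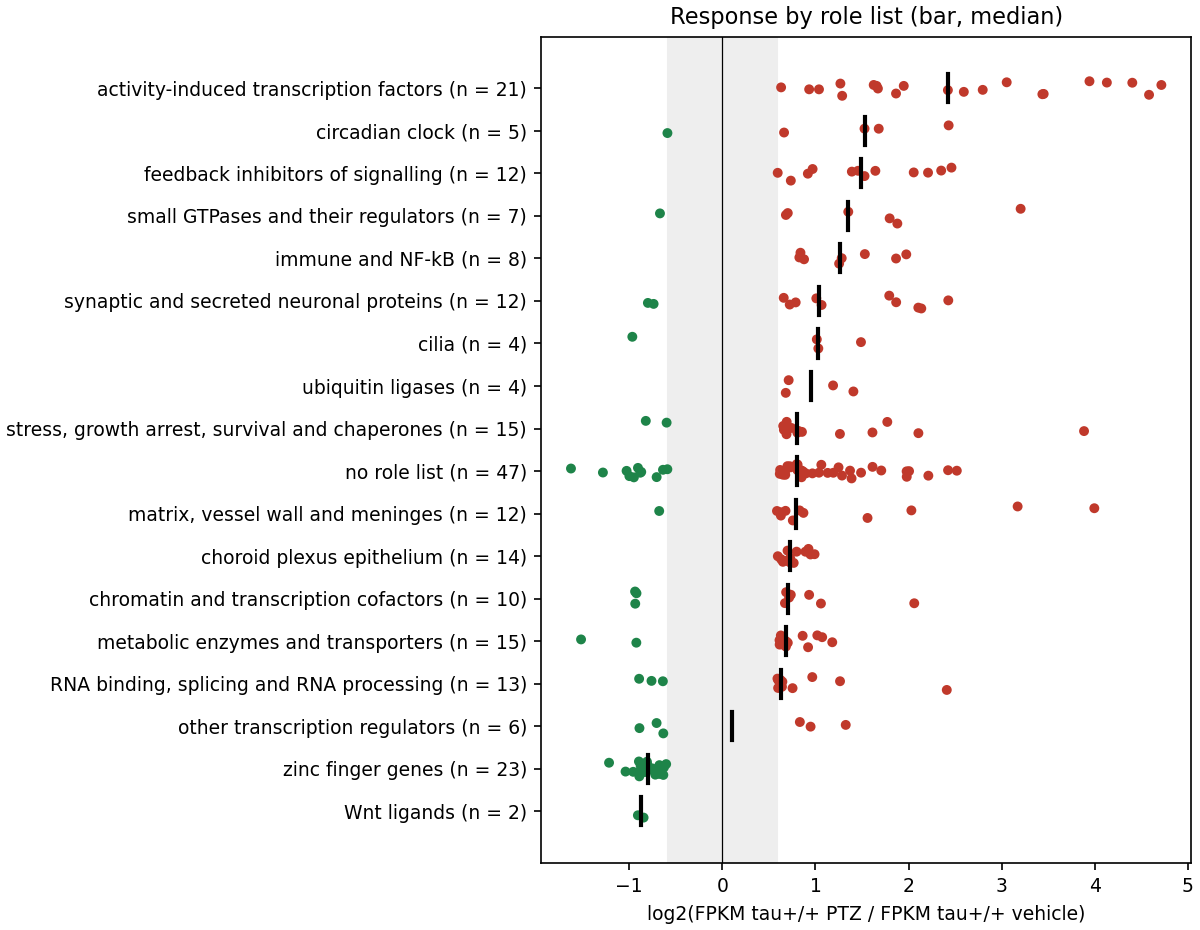
Log2 ratio of PTZ over vehicle in tau+/+ (horizontal) for each listed gene, with 1 row per role list, red points for higher and green points for lower genes, black bars for list medians and the range within 1.5-fold shaded. Activity-induced transcription factors sit furthest to the right with a median of 2.42, while zinc finger genes and Wnt ligands hold only lower genes.

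Outside the transcription factors, 66 genes were at least 2-fold higher, and their median was 3.09 FPKM in vehicle and 10.9 FPKM in PTZ. The 5 with the largest ratios came from vessel and matrix genes, stress genes, small GTPases and genes outside the lists. Cyr61 (now Ccn1; chromosome 3 of GRCm38, 145646976 to 145649981, minus strand) encodes a secreted matrix protein and had 2.027 FPKM in vehicle and 32.3 FPKM in PTZ, 15.95-fold higher. Btg2 (chromosome 1, 134075170 to 134079120, minus strand) encodes an antiproliferative partner of mRNA deadenylases and had 7.10 and 105 FPKM, 14.8-fold higher. Arl4d (chromosome 11, 101665541 to 101667832, plus strand), a small GTPase of the ARF family, had 5.12 and 47.2 FPKM, and Apold1 (chromosome 6, 134981718 to 134986836, plus strand), an early response gene of endothelium, had 0.633 and 5.70 FPKM. In tau-/- vehicle these 4 genes had 2.63, 5.56, 10.5 and 0.940 FPKM, each well under the tau+/+ PTZ value. The fifth, Gm12191 (chromosome 11, 49678710 to 49679057), had 2.95 and 16.9 FPKM. It is annotated as a processed pseudogene, whose reads can be shared with its parent gene, so its value is uncertain.

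The sequence before the start site was examined because genes of this response are known targets of CREB and SRF. RefSeq promoter windows, from 250 bases before to 50 bases after the start, were at hand for 174 of the 230 genes. The cAMP response element, searched as TGACGTCA, which reads the same on both strands, was in a window of 9 of 65 genes that were at least 2-fold higher (13.8%), of 3 of 64 genes that were higher by less (4.69%) and of 1 of 45 lower genes (2.22%). It was in a window of 445 of 17492 protein-coding genes of the genome (2.54%). The counts in the listed genes are small, the base content of the windows was not matched, and the differences were not tested. By list, 3 of 8 feedback inhibitors with a window held it, 1 of 18 activity-induced transcription factors, 0 of 10 choroid plexus genes and 0 of 21 zinc finger genes. Only matches to the letters searched, within these windows, were counted, here and for the motifs below. Other forms of an element, or more distant ones, would be missed, so a gene without a match may still hold one. In each of the 12 higher genes the site lay before the start, at 12 bases in Ppp1r15a to 175 bases in Rcan1, whereas in Wdr5b, the lower gene, it began 3 bases after the start.

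The stretches of 6 genes are printed because they show the element in genes of different roles, among them Btg2 and Arl4d, which had some of the largest ratios outside the transcription factors. Each ends at, or comes before, the annotated start, is written 5′ to 3′ on the gene's strand from RefSeq on GRCm38.p6, and has the element in capitals. They lie, in order, at chr11:101665489-101665540 (plus strand), chr1:134079288-134079347 (minus), chr4:150854993-150855052 (plus), chr17:26508582-26508641 (minus), chr7:45526269-45526306 (minus) and chr13:110394956-110395015 (plus). The element starts 26, 166, 51, 143, 12 and 62 bases before the start in this order.
Arl4d: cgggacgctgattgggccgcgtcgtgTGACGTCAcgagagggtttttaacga
Btg2: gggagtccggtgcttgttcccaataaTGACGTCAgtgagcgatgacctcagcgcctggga
Errfi1: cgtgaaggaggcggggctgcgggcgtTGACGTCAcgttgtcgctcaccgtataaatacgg
Dusp1: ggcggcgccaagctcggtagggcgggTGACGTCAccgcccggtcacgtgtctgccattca
Ppp1r15a: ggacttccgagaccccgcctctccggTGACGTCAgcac
Plk2: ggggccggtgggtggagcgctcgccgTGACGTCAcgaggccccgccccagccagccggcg

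The CArG box, the element that SRF binds, was rarer. It was in a window of 5 listed genes: Zfp36, Dusp5 and Egr2, which were at least 2-fold higher, and Srf and Ston1, which were higher by less. Among genes at least 2-fold higher, 3 of 65 held it (4.62%), among lower genes 0 of 45, and among all protein-coding genes 307 of 17492 (1.76%). The counts in the listed genes are small, and the difference was not tested. Dusp5 and Srf each held a pair of boxes. The stretches of Zfp36 (chr7:28379251-28379312, minus strand), Dusp5 (chr19:53529037-53529108, plus) and Srf (chr17:46556189-46556270, minus) show them in capitals, and in Dusp5 the boxes abut.
Zfp36: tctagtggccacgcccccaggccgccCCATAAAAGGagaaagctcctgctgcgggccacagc
Dusp5: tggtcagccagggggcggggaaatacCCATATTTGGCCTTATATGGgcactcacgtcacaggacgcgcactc
Srf: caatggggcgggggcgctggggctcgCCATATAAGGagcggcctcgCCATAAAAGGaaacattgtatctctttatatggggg

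The AP-1 site was searched as TGANTCA and the heat shock element as TTCNNGAA, each on both strands. Neither had a higher share in genes at least 2-fold higher than in all protein-coding genes, and the counts were small. The AP-1 site was in a window of 2 of 65 genes at least 2-fold higher (3.08%), against 8.12% of protein-coding genes. The heat shock element was in a window of 5 of 65 (7.69%), against 8.73%. None of these motifs lies within another. A match of letters is not a bound site, and binding was not measured in these libraries.

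**Figure D3:**
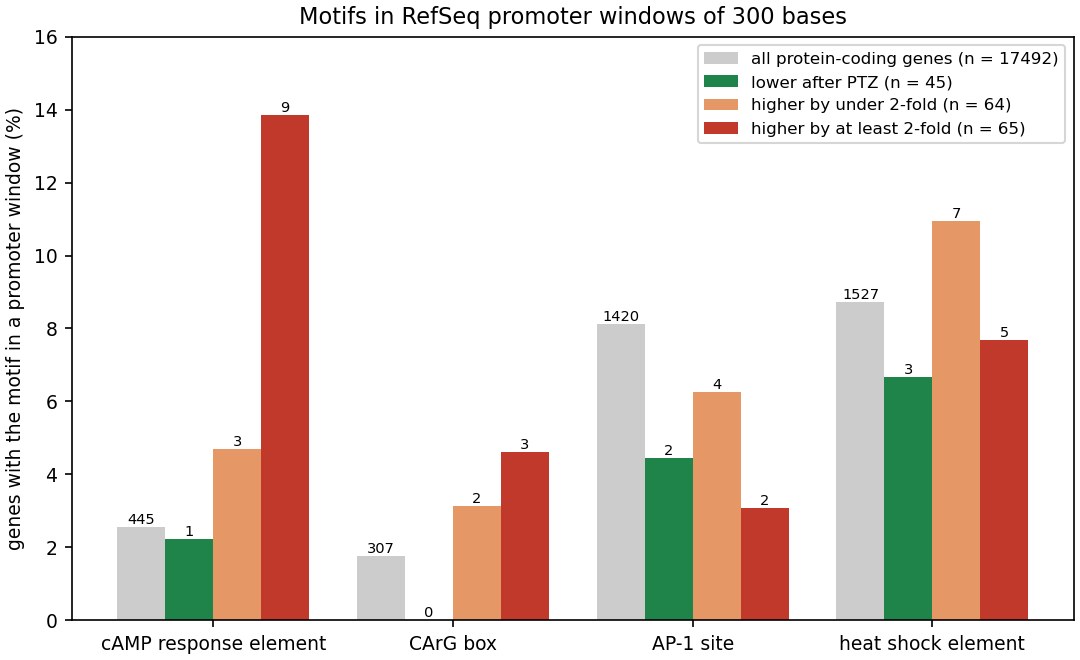
Share of genes with a motif in a RefSeq promoter window (vertical, percent) for 4 motifs, with 1 bar for all protein-coding genes and 1 for each of 3 groups of listed genes, and the number of genes with the motif above each bar. The cAMP response element reaches 13.8% in the genes at least 2-fold higher, against 2.54% in all protein-coding genes, a difference that was not tested.

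The 12 feedback inhibitors, which end signalling once it has begun, were all higher, with a median log2 ratio of 1.49 and 8 at least 2-fold. Their median was 7.44 FPKM in vehicle and 20.4 FPKM in PTZ. Sik1, a kinase that holds back the CREB coactivators, had 2.28 and 12.6 FPKM. Errfi1, an inhibitor of the EGF receptor whose cAMP response element is shown above, had 11.8 and 60.4 FPKM, the highest level of the list after PTZ. Among the phosphatases of MAP kinases, Dusp1 had 8.70 and 40.2 FPKM, Dusp5 had 4.54 and 18.9 FPKM, and Dusp6 had 19.9 and 57.5 FPKM. Other branches were held by Rgs2, which speeds G protein inactivation (11.0 and 34.4 FPKM), Trib1, a pseudokinase that recruits a ubiquitin ligase (2.68 and 7.37 FPKM), and Smad7, the inhibitor of TGF-beta receptors (3.64 and 9.54 FPKM). The smallest ratio was that of Rcan1, an inhibitor of calcineurin, with 14.5 and 21.9 FPKM. Against tau-/- vehicle, 8 of the 12 stayed past 1.5-fold. The others were Dusp5 (13.1 FPKM in tau-/- vehicle), Rcan1 (20.6 FPKM), Dusp4 and Cish, with log2 ratios of 0.53, 0.09, 0.47 and 0.32.

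Synaptic and secreted neuronal proteins formed a list of 12, of which 10 were higher and 2 lower, and 7 were at least 2-fold higher. Arc (chromosome 15, 74669083 to 74672570, minus strand), which removes AMPA receptors from synapses, had 39.0 FPKM in vehicle and 168 FPKM in PTZ. Plk2, a kinase that loosens active synapses, had 63.4 and 133 FPKM, and these were the most abundant members. Pcdh8, a protocadherin of dendrites, had 16.8 and 58.3 FPKM. Ptgs2, the inducible cyclooxygenase that makes prostaglandins, had 7.44 and 32.7 FPKM, and Kcnj2, an inward rectifier potassium channel, had 2.90 and 10.6 FPKM. The peptide galanin (Gal) had 0.378 and 2.033 FPKM, the largest ratio of the list at a low level, and Bdnf, a growth factor of synapses, had 13.2 and 26.5 FPKM. The lower members were Cbln1 and Unc13c, transcripts of cerebellar granule cells. Cbln1, which joins parallel fibres to Purkinje cells, had 3.26 and 1.87 FPKM, and Unc13c, a vesicle priming protein, had 2.87 and 1.72 FPKM. In tau-/- vehicle these genes had 1.79 and 1.52 FPKM, below tau+/+ PTZ, so their direction turned with the vehicle library used.

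Of 7 small GTPases and their regulators, 6 were higher, and 4 of them at least 2-fold. Beside Arl4d these were Gem, which inhibits voltage-gated calcium channels (0.836 and 3.08 FPKM), Rasl11a, a Ras-like protein of the nucleolus (6.53 and 22.7 FPKM), and Arl5b, which acts at the Golgi (3.24 and 8.27 FPKM). Rnd1, which loosens the actin cytoskeleton, was lower, with 4.27 and 2.69 FPKM. Gem had 1.84 FPKM in tau-/- vehicle, and against that library the median log2 ratio of the list was 0.74 instead of 1.35, with 4 of 7 past 1.5-fold.

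**Figure D4:**
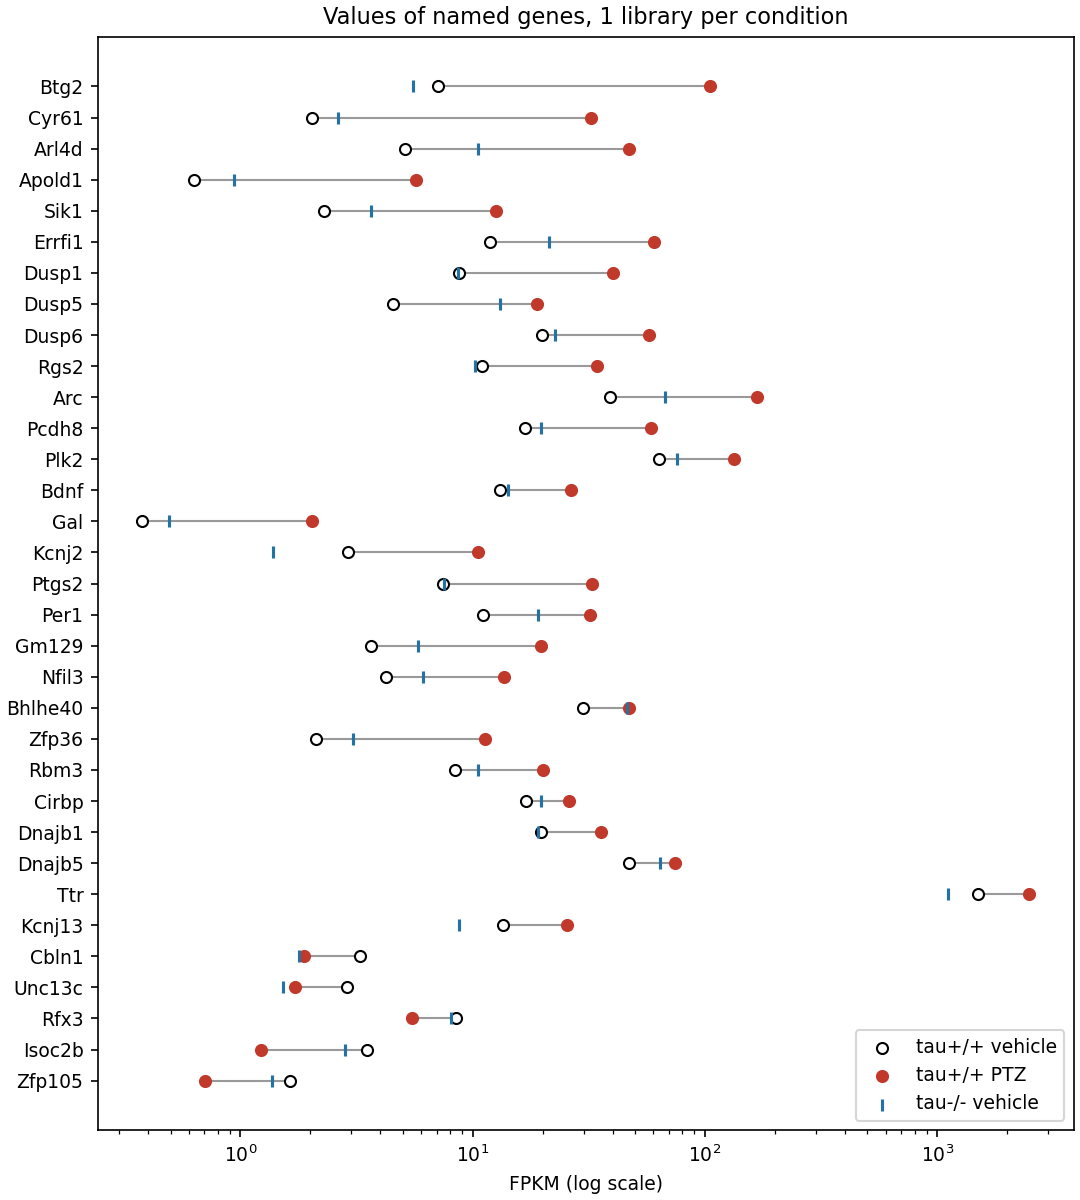
FPKM (horizontal, log scale) of genes chosen from the role lists in tau+/+ vehicle (open circles), tau+/+ PTZ (filled red circles) and tau-/- vehicle (blue ticks), joined by a grey line between the tau+/+ libraries. For Btg2, Cyr61 and Arl4d the ticks lie far below the PTZ value, whereas for Cbln1 and Unc13c they lie at or under it.

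The list for stress, growth arrest, survival and chaperones held 15 genes, 13 higher and 2 lower, with a median log2 ratio of 0.81. The DNA damage and growth arrest genes Gadd45g (13.5 and 58.0 FPKM) and Gadd45b (5.93 and 14.2 FPKM), both of which also act in DNA demethylation, were higher. So was Cdkn1a, the p21 inhibitor of the cell cycle, with 6.22 and 11.0 FPKM. Ppp1r15a, which restores translation after stress and holds a cAMP response element next to its start, had 6.65 and 22.7 FPKM. Sgk1, a kinase induced by glucocorticoids and salt, had 19.4 and 59.3 FPKM, but 47.3 FPKM in tau-/- vehicle, a ratio under 1.5-fold. The chaperones of the HSP40 family were higher by less than 2-fold, Dnajb1 with 19.6 and 35.5 FPKM and Dnajb5 with 47.2 and 74.2 FPKM. The lower members were Bbc3, the apoptosis inducer PUMA (2.09 and 1.18 FPKM), and Cdkn2aip, a p53 regulator (2.82 and 1.86 FPKM). Tau-/- vehicle had 1.16 FPKM of Bbc3, so its lower value rests on tau+/+ vehicle.

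Clock genes were few, and 4 of 5 were higher. Gm129, now Ciart, a repressor of the clock activators (chromosome 3, 95878503 to 95882251, minus strand), had 3.63 FPKM in vehicle and 19.6 FPKM in PTZ. Nfil3, a repressor of D-box genes, had 4.24 and 13.6 FPKM, and Per1, a core repressor of the clock that also holds early response elements (chromosome 11, 69095217 to 69109960, plus strand), had 11.1 and 32.0 FPKM. Bhlhe40, the repressor DEC1, had 29.7 and 47.0 FPKM, with 46.4 FPKM in tau-/- vehicle. The nuclear receptor Rorb was lower at 2.58 and 1.71 FPKM. Per1 had 19.1 FPKM in tau-/- vehicle, and against that library the median log2 ratio of the list was 0.75 instead of 1.53, with 3 of 5 past 1.5-fold. All 4 higher genes encode repressors of transcription. The hour at which brains were taken is not given in the sources used here.

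Immune genes and regulators of NF-kB were present at low levels, and all 8 were higher. Their medians were 0.872 and 2.11 FPKM, with a median log2 ratio of 1.27. In vehicle, 4 of the 8 were under 1 FPKM, a range in which the list held only higher genes. With a pseudocount of 1 FPKM the median log2 ratio was 0.63. The nuclear IkB proteins Nfkbid and Nfkbiz, which tune transcription by NF-kB, had 0.422 and 1.66 FPKM and 1.04 and 3.78 FPKM. Cd14, the lipopolysaccharide coreceptor of microglia and macrophages, had 0.705 and 2.04 FPKM, and Lgals3, the galectin of activated phagocytes, had 0.646 and 1.57 FPKM. P2ry6, the receptor that drives phagocytosis by microglia, had 1.25 and 2.21 FPKM, but 2.09 FPKM in tau-/- vehicle. The 3 markers of microglia and macrophages in the list summed to 2.60 FPKM in vehicle and 5.82 FPKM in PTZ. Tgtp1, an interferon-induced GTPase at 0.612 and 1.46 FPKM, has near-identical copies, and its reads may be shared among them.

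Among 13 genes of RNA binding, splicing and processing, 10 were higher and 3 lower, close to the 76.1% higher over all listed genes, and 2 were at least 2-fold higher. The median log2 ratio was 0.63, and 0.37 against tau-/- vehicle, where 5 of the 13 stayed past 1.5-fold. Zfp36, or tristetraprolin, which destroys mRNAs with AU-rich elements, had the largest ratio, with 2.12 and 11.3 FPKM, but not the highest level. The RNA-binding proteins that mild cold induces, Rbm3 (8.39 and 20.1 FPKM) and Cirbp (16.9 and 26.1 FPKM), were both higher. Several splicing genes were near 1.5-fold, among them the kinases of SR proteins Clk1 (16.9 and 25.4 FPKM) and Clk4 (7.67 and 11.96 FPKM), and Hnrpdl (27.4 and 41.5 FPKM). Ccnl1, a cyclin of the splicing machinery, had 7.31 and 14.3 FPKM. The lower members, Bcdin3d (2.67 and 1.43 FPKM), Clp1 (2.51 and 1.48 FPKM) and Trmt12 (1.82 and 1.17 FPKM), act on microRNA precursors or tRNAs.

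Chromatin genes and cofactors numbered 10, with 7 higher and 3 lower, and a median log2 ratio of 0.70, or 0.37 against tau-/- vehicle. Cenpa, the histone H3 variant of centromeres, had 1.00 FPKM in vehicle and 4.19 FPKM in PTZ, and it had 0.783 FPKM in tau-/- vehicle. The most abundant member was H3f3b, which encodes the histone variant H3.3 that is laid down at active genes, with 55.1 and 88.5 FPKM. The demethylase gene Kdm6b had 4.66 and 7.75 FPKM, and the corepressor gene Irf2bp2 had 6.93 and 13.2 FPKM. Hist2h3c2, a replication-dependent histone H3 gene, was lower at 3.68 and 1.94 FPKM, as were Spin2 (3.34 and 1.75 FPKM) and Wdr5b (2.67 and 1.40 FPKM). Replication-dependent histone mRNAs have no poly(A) tail and near-identical copies, which makes the value of Hist2h3c2 uncertain.

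The other transcription regulators, 6 in number, were split evenly, 3 higher and 3 lower. Hes1, the repressor downstream of Notch, had 5.15 and 9.93 FPKM, Id1, the inhibitor of bHLH factors, had 9.76 and 17.4 FPKM, and Atoh8 had 1.01 and 2.53 FPKM. Rfx3 had 8.50 and 5.48 FPKM, Tox had 5.41 and 3.31 FPKM, and Klf5, a zinc finger factor of growing cells, had 4.13 and 2.23 FPKM. The 4 ubiquitin ligase genes were all higher. Fbxo33, a substrate receptor of SCF ligases, had 11.0 and 29.1 FPKM, and Siah2, a ligase of the hypoxia response, had 4.11 and 9.37 FPKM.

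Genes of vessels, matrix and meninges numbered 12, with 11 higher and 1 lower. Beside Cyr61 and Apold1, Adamts1, a matrix protease, had 4.59 and 18.7 FPKM, and Thbs1, or thrombospondin 1, which shapes vessels and synapses, had 0.581 and 1.71 FPKM. These 4 genes were at least 2-fold higher. The structural genes of meninges and perivascular fibroblasts moved less: the proteoglycan Lum had 1.73 and 3.08 FPKM, the fibril protein Mfap2 2.59 and 4.38 FPKM, and Mxra8 1.91 and 3.49 FPKM. Over the 5 markers of meninges and perivascular fibroblasts, all were higher, and their sum was 15.9 FPKM in vehicle and 26.2 FPKM in PTZ. The 5 genes noted as markers of endothelium, Apold1, Col4a2, Gimap6, Klf2 and Id1, summed to 23.9 and 46.5 FPKM, but most of this sum was Klf2 (6.21 and 11.9 FPKM) and Id1 (9.76 and 17.4 FPKM), which stand here among the transcription regulators and are not particular to endothelium. Col4a2, a collagen of basement membranes, lay nearest to 1.5-fold of all higher genes, with 5.42 and 8.14 FPKM.

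All 14 genes of choroid plexus epithelium, which secretes cerebrospinal fluid, were higher, and none by as much as 2-fold. Their log2 ratios lay from 0.60 to 0.99, with a median of 0.73. This range is not particular to them, since the list admits no ratio under 1.5-fold. All 90 listed genes higher by under 2-fold spanned 0.59 to 0.99, with a median of 0.71. The sum of the 14 genes was 1586 FPKM in vehicle and 2636 FPKM in PTZ, most of it Ttr. The levels within the choroid plexus list were far apart. Wfikkn2, a secreted protease inhibitor, had 0.743 and 1.48 FPKM, and the potassium channel gene Kcnj13 had 13.5 and 25.6 FPKM. For 1500015O10Rik, or augurin, the values were 20.9 and 40.4 FPKM. Sostdc1, an antagonist of BMP and Wnt, had 9.18 and 15.6 FPKM, and Folr1, the folate receptor, had 13.0 and 21.5 FPKM. Further members were the tight junction gene Cldn1 (2.32 and 4.30 FPKM), the cation channel gene Trpv4 (1.73 and 3.01 FPKM) and the coagulation factor gene F5 (3.58 and 5.42 FPKM). In tau-/- vehicle 10 of the 14 were lower than in tau+/+ vehicle, among them Ttr (1107 FPKM) and Kcnj13 (8.73 FPKM), and 4 were higher, among them Wfikkn2 (1.22 FPKM). Against that library 11 of the 14 stayed past 1.5-fold higher and the median log2 ratio was 1.09, while that of Wfikkn2 was 0.27. How much choroid plexus or meninges each brain sample held was not measured, and its part in these ratios was not tested.

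Of 15 metabolic enzymes and transporters, 13 were higher and 2 lower, and 3 were at least 2-fold higher. Coq10b, which acts in coenzyme Q biology, had 7.17 and 16.2 FPKM, the fructose kinase gene Khk had 1.29 and 2.70 FPKM, and the glutathione transferase gene Gstm2 had 1.12 and 2.27 FPKM. Isoc2b (chromosome 7, 4844959 to 4870258, minus strand), an isochorismatase-like gene, had 3.51 and 1.23 FPKM, the second largest fall of the list of 230, with 2.81 FPKM in tau-/- vehicle.

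Of 4 cilium genes, 3 were at least 2-fold higher, all at low levels: Morn5 (0.539 and 1.51 FPKM), Ccno, which drives the multiplication of centrioles (0.888 and 1.82 FPKM), and Tekt1, a filament of axonemes (1.99 and 4.02 FPKM). Morn5 and Ccno were under 1 FPKM in vehicle, a range in which the list held only higher genes. Lrrc56, which helps to load dynein arms, was lower at 1.41 and 0.723 FPKM. The median log2 ratio of the 4 genes was 1.02, and 0.64 with a pseudocount of 1 FPKM. These 4 do not cover all listed genes of cilia. 1700009P17Rik, now Cfap126, stayed outside the role lists with 2.37 and 4.15 FPKM, higher by under 2-fold.

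In the 47 genes outside the lists, 36 were higher and 11 lower. Gm13889, a single-exon gene with 11.3 FPKM in vehicle and 60.7 FPKM in PTZ, was the most abundant of them after PTZ but for Erdr1. Tiparp, a mono-ADP-ribosyltransferase that curbs the aryl hydrocarbon receptor, had 4.08 and 16.4 FPKM, and C2cd4b, a nuclear protein of endothelial cells, had 3.37 and 15.6 FPKM. Erdr1 had 31.9 and 75.7 FPKM, and E030010A14Rik, now Tmem252, had 0.417 and 1.65 FPKM. Against tau-/- vehicle, which had 1.30 FPKM of it, the log2 ratio of E030010A14Rik was 0.34, under 1.5-fold. Xlr3b, at 0.817 and 3.22 FPKM, belongs to a family of near-identical X-linked copies, and LOC100504703, at 1.67 and 5.47 FPKM, was not found in GENCODE, so both are uncertain. Gm13629, an antisense transcript (chromosome 2, 66440880 to 66546026, plus strand), had 1.60 and 0.517 FPKM, the largest fall of all, 3.09-fold. Amn, a membrane partner of cubilin, had 1.75 and 0.718 FPKM, and Gm12942, now Tmem35b, had 1.57 and 0.770 FPKM. If reads were counted without strand, those of an antisense gene and its partner cannot be told apart.

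Among the lower genes, the largest role list was that of zinc finger genes of the C2H2 type, many of which encode KRAB or BTB repressors. It made up 23 of the 55 lower genes. With Klf5, which stands among the other transcription regulators, 24 lower genes held a C2H2 finger, against 6 higher genes. The share of C2H2 genes among all genes measured was not computed. The list was gathered from lower genes, so its direction was fixed by the choice, and the higher C2H2 genes Egr1 to Egr4, Klf2 and Klf4 stand in the transcription factor list. The log2 ratios of the 23 genes ran from -1.22 to -0.60, with a median of -0.80. The median was 2.16 FPKM in vehicle and 1.18 FPKM in PTZ, and 8 of the 23 were under 1 FPKM after PTZ. Zfp105 (chromosome 9, 122923072 to 122931028, plus strand) had 1.63 and 0.701 FPKM, and Zfp11 (chromosome 5, 129654593 to 129670099, minus strand) had 2.39 and 1.16 FPKM, and only these 2 were at least 2-fold lower. Zfp273 had 3.01 and 1.55 FPKM, Zbtb39 had 2.11 and 1.13 FPKM, and Zkscan14 had 2.89 and 1.58 FPKM. The most abundant after PTZ were Zbtb6 (3.83 and 2.30 FPKM) and Zfp84 (3.39 and 2.20 FPKM). Against tau-/- vehicle all 23 were still lower, 17 of them by over 1.5-fold, while among the 32 other lower genes 28 were lower and 12 by over 1.5-fold.

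The number of fingers per protein differed between the directions. A count of C2H2 fingers in the proteins translated from GENCODE coding sequences, done for 222 coding genes, found 30 genes with at least 1 finger. The 6 that were higher after PTZ, Egr1, Egr2, Egr3, Egr4, Klf2 and Klf4, held exactly 3 each. The 24 that were lower held a median of 11, from 3 to 23, and 17 of them held 9 or more. The lower genes with 3 fingers were Zbtb34 and Klf5, so the number of fingers did not fix the direction. The higher genes are members of the Egr and Klf families.

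**Figure D5:**
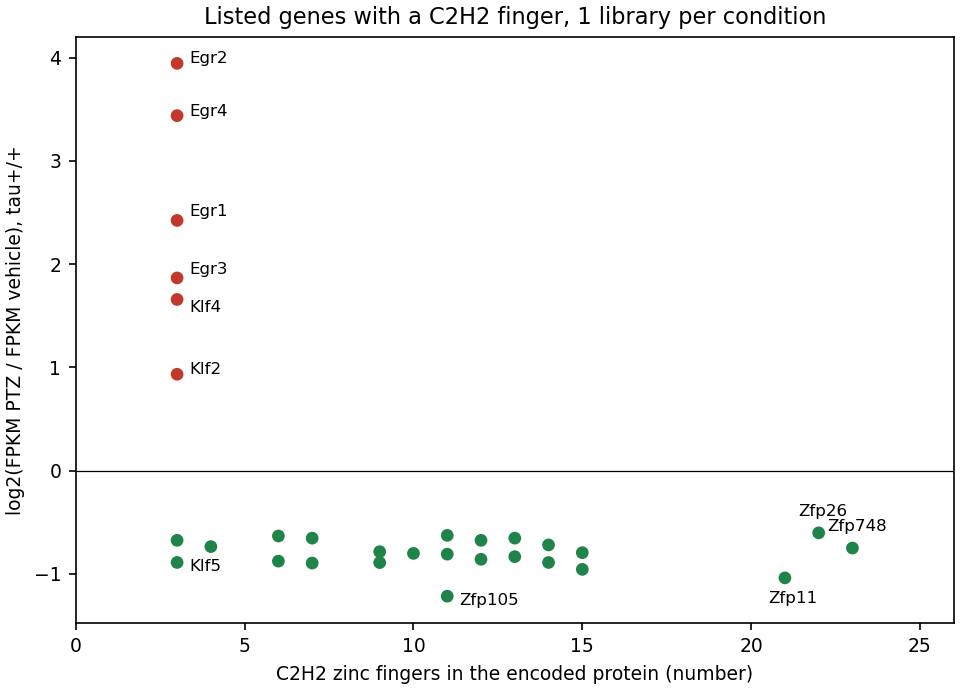
Log2 ratio of PTZ over vehicle in tau+/+ (vertical) against the number of C2H2 fingers in the encoded protein (horizontal) for the 30 listed genes with a finger, 1 point each. The 6 higher genes (red) all sit at 3 fingers, and the 24 lower genes (green) spread from 3 to 23.

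Some zinc finger genes were neighbours on the genome. On chromosome 7, Zfp84 and Zfp30 were separated by 4177 bases, and Zfp747 and Zfp689 by 66086 bases. Zinc finger genes of such clusters arose by duplication and share sequence, so that reads can be split among copies in ways that the FPKM values do not show.

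The Wnt ligand genes were also lower, Wnt9a with 1.80 and 1.00 FPKM and Wnt10a with 1.43 and 0.763 FPKM. In tau-/- vehicle they had 2.05 and 1.76 FPKM.

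The structure of the transcripts differed in part between the directions. The authors also selected genes by a significance call, and the part of that call in these differences was not tested. The transcripts of lower genes had a median GC content of 47.4%, against 53.5% in genes at least 2-fold higher and 53.2% in genes higher by less. They were longer, with a median of 3336 bases against 2532 and 2536 bases. Within the zinc finger list these medians were 45.4% and 3621 bases, while the other lower genes had 49.2% and 2800 bases. Genes at least 2-fold higher had a median of 4 exons, and 41.5% had 3 exons or fewer, whereas genes higher by less had 7 exons and 23.6%. Lower genes were also short in exons, with a median of 4 and 38.9% at 3 or fewer. These are medians over genes of a selected list, and no test was made on them.

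At the edge of the list, the higher genes nearest to 1.5-fold were Col4a2, Clk1, Rcan1, F5 and Hnrpdl, at most 1.51-fold higher. The lower genes nearest to it were Rorb, Cit, Cdkn2aip, Zfp26 and Zfp84, at most 1.55-fold lower. Genes just outside 1.5-fold were not in the list and were not analysed here.

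Most directions did not depend on which vehicle library was used, though sizes did. Set against tau-/- vehicle, 174 of the 175 higher genes were still higher in tau+/+ PTZ, 127 of them by over 1.5-fold, and 51 of the 55 lower genes were still lower, 29 of them by over 1.5-fold. Of the 85 genes at least 2-fold higher, all 85 were still higher and 79 by over 1.5-fold, and of the 90 genes higher by less, 89 and 48. Both readings use the same tau+/+ PTZ library and are not independent.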

How the data were processed

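The authors sequenced total RNA of mouse brain, 1 library per condition, and aligned read pairs to GRCm38/mm10; the submitters' processing notes name CASAVA 1.7, TopHat2 2.03, Bowtie2 2.0.0.6 and Cuffdiff 2.01. The annotation is not given in the sources used here. The deposited FPKM values were made by the authors with Cuffdiff for 230 genes that they selected. Their log2 fold changes and p-values, deposited beside them, were not used. Log2(FPKM PTZ / FPKM vehicle) was computed without a pseudocount, and genes past 1.5-fold or 2-fold were counted. The members and lists were chosen with earlier results of these data known. Named were, per list, up to 8 genes with the largest absolute ratio and the 2 most abundant after PTZ, then the 5 most extreme ratios, gains, losses and genes nearest to 1.5-fold, and genes whose sequence is shown. Other genes named (Unc13c, Ston1, Trmt12, Dusp4, Cish, Zbtb34, Zfp30, Zfp689, Klf2, Klf4, Egr3, 1700009P17Rik and Gm12942) were chosen after their values were seen. Some genes that this rule selects are not reported here. Coordinates, exons and GC content are those of GENCODE M21 (225 genes matched), and promoters those of RefSeq (227 genes matched by name). Functions were tested on simulated data. The alternatives were pseudocounts of 0.1 and 1 FPKM, a mean of at least 1 or 5 FPKM, PTZ values multiplied by 0.9 or 1.1, tau-/- vehicle as the baseline, the list without choroid plexus genes, and promoters cut to 200 bases before the start. Values were computed in Python 3.11.15 (pandas 2.3.3, numpy 2.4.6) and drawn with matplotlib 3.10.9.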

Additional observations from a re-analysis of the deposited data

Results flagged for a closer look

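The 14 genes of choroid plexus epithelium were all higher after PTZ in tau+/+, with a median log2 ratio of 0.73, and all lower after PTZ in tau-/-, with a median log2 ratio of -3.58 against tau-/- vehicle. The sign of the list differs between the genotypes. In tau-/-, Ttr had 1107 FPKM in vehicle and 33.1 FPKM in PTZ, Kcnj13 had 8.73 and 0.665 FPKM, and Folr1 had 8.45 and 0.276 FPKM. How much choroid plexus each brain sample held was not measured, and its part in these ratios was not tested. All listed genes were chosen for an absent or milder change in tau-/-; over the 230, 135 were lower in tau-/- PTZ than in tau-/- vehicle, with a median log2 ratio of -0.09. The difference was not tested, since there was 1 library per condition.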

How the results depend on the processing

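With 1 library per condition, no result has a replicate check within these libraries. The paper reports separate quantitative PCR of Arc, Fos, Junb and other selected transcripts after PTZ, which was not used here. The counting error of low values was not computed, since FPKM does not hold the depth of each library. No paired analysis was possible because each condition has a single library. Of 195 recomputed values, 110 moved by no more than a set tolerance, 84 moved further, and 1 changed sign. The tolerance was 0.1 on the log2 scale, 1.5 times in a count, and for a promoter share the confidence interval of the share as reported. Of the 16 promoter shares, 10 stayed within it and 6 moved further. Scaling PTZ by 0.9 or 1.1 shifts every median past the tolerance on the log2 scale by construction, which accounts for 37 of the 84 moved values and for the sign change. The value that changed sign was the median log2 ratio of the 6 further transcription regulators, 0.10 as reported and -0.053 with PTZ values multiplied by 0.9. With a pseudocount of 1 FPKM, 15 genes were past 1.5-fold lower and 1 past 2-fold lower, and the median log2 ratios were 0.75 for higher and -0.51 for lower genes. With a mean of at least 5 FPKM, 107 genes were past 1.5-fold higher and 2 lower, 54 were past 2-fold higher and 0 lower, and the median of lower genes was -0.61; fewer genes remain under this filter. With PTZ values multiplied by 0.9, 25 genes were past 2-fold lower, and the medians were 0.82 for higher and -0.97 for lower genes; multiplied by 1.1, they were 1.105 and -0.68. With tau-/- vehicle as the baseline, 29 genes were past 1.5-fold lower, and the median of all 55 lower genes was -0.61. A pseudocount shrinks the ratios of low values by construction, and for the change of baseline the cause was not tested. A filter at a mean of 1 FPKM removed 0 genes, so its values were the same by construction. Leaving out the choroid plexus list likewise cannot change the medians of the other lists or the values of lower genes. These unchanged values are counted among the 110 and say nothing on stability.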
